A study of Mus musculus with 12 samples.

Results

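The DNA replication genes are 40 genes, chosen by name, whose products start S phase and copy DNA. They were followed in dendritic cells grown from mouse bone marrow. Each gene was read from the probe set annotated to it alone with the highest mean signal, and 39 of the 40 had a tested probe set among 12429 genes tested in all. Chaf1a, the large subunit of the CAF-1 histone chaperone, had no probe set under its name in the annotation used and was not analysed here.

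Marrow cells of BALB/c and BL6 mice, 6 to 8 weeks old, were grown in GM-CSF (20 ng/ml) for 10 days, the growth factor that turns marrow precursors into dendritic cells in culture. From the start, the cultures received no retinoid, all-trans-retinoic acid (RA, labelled 10 nmol), which activates retinoic acid receptors, or Ro41-5253 (Ro, labelled 100 nmol), an antagonist of the alpha form of that receptor. Each of these 3 states was measured with and without LPS (1 ug/ml), a bacterial cell wall component that activates dendritic cells, and the time of LPS exposure was not given separately. Each of the 6 conditions had 1 BALB/c culture (replicate 1) and 1 BL6 culture (replicate 2), each on 1 Affymetrix array, so strain and any batch that goes with replicate number cannot be told apart. Nothing in the labels says that cultures of 1 strain came from separate animals, and p-values then measure only the spread between these arrays.

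Before a cell copies its DNA, the origin recognition complex, Cdc6 and Cdt1 load rings of the Mcm2 to Mcm7 proteins onto origins in G1. Cyclin E with its kinase, and transcription factors of the E2F family, then carry the cell into S phase, where Cdc45 and the GINS complex turn the rings into active helicases. Polymerases, a sliding clamp and enzymes that make deoxynucleotides complete the copy. Many of these genes are known E2F targets that are transcribed in cycling cells and silent in resting ones. Marrow cultures with GM-CSF contain dividing precursors, and mature dendritic cells do not divide, as background knowledge.

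Values are Affymetrix signals on the deposited linear scale. The median signal of an array was 21.4 at the lowest and 41.8 at the highest, and the latter is called background. Changes are differences in log2(signal + 16), given relative to the median change of all 12429 tested genes in that comparison, with the standard error of the limma fit after the plus-minus sign. With LPS that median itself was -0.41 on the log2 scale, and with Ro it was 0.23. A gene "rose" or "fell" where its adjusted p in limma was below 0.05 at the deposited scaling. All p-values and directions of calls belong to the change before the median of all genes is subtracted. They do not test the relative change printed beside them, so a relative change near 0 can carry a small p. Shares of all genes printed beside calls belong to adjusted p. Where genes at an unadjusted p under 0.05 are counted, the share of all genes at that threshold is not given. Folds are taken from the relative changes, and none is given where a group's mean signal lay below background. Of the 10 dendritic cell markers, H2-Aa, H2-Ab1, Cd74, Itgax, Dpp4, Ccr7 and Batf3 were above background on all 12 arrays. Flt3 lay between 4.89 and 101, and Zbtb46 between 26.2 and 501. Cd209a gave 257 to 3379 without LPS and 15.4 to 36.8, below background, with it.

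Promoters of 33 of the 40 genes were in the RefSeq promoter table (GRCm38.p6, 250 bases before to 50 after each start), and 5 are shown, from genes with large, intermediate and no falls with LPS. Mcm5 and Mcm6 are helicase ring genes that fell with LPS, Pola1 is the polymerase gene that fell most, Rfc3 did not fall, and Rrm2 had the largest fall of all 39. Each sequence is the 250 bases before the start, read 5′ to 3′ along the gene, and capitals mark matches to TTTGGCGC or TTTCGCGC, E2F-type motifs, on either strand.
Mcm5: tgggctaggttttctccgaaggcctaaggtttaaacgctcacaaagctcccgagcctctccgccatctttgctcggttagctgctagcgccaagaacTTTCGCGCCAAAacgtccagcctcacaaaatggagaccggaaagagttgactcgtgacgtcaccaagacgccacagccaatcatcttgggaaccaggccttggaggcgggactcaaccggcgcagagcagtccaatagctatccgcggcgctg
Mcm6: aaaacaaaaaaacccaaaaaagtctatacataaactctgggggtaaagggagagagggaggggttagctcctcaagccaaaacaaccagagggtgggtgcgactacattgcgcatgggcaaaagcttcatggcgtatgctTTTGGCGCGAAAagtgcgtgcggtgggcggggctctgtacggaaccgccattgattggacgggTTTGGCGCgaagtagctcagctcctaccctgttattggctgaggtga
Pola1: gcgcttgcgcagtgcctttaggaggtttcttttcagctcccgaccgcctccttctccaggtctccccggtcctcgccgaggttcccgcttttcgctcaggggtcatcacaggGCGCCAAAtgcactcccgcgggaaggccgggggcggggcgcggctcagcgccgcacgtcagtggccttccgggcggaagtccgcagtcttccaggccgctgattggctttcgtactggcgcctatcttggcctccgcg
Rfc3: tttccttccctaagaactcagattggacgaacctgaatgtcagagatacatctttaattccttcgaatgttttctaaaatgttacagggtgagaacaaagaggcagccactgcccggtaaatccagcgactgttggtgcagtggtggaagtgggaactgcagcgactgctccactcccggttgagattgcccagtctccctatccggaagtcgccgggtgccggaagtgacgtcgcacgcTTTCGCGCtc
Rrm2: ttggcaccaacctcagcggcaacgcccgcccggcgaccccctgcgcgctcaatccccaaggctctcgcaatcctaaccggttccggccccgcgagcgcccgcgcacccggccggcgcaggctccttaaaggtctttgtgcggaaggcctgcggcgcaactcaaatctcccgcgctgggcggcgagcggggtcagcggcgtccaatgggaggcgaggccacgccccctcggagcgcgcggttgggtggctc
The Mcm5 stretch is chr8:75109259-75109508 (plus strand), that of Mcm6 chr1:128359706-128359955 (minus strand), that of Pola1 chrX:93632156-93632405 (minus strand), that of Rfc3 chr5:151651209-151651458 (minus strand) and that of Rrm2 chr12:24708004-24708253 (plus strand). In Mcm5 a TTTCGCGC and a TTTGGCGC on opposite strands overlap in 1 site, as they do in the first site of Mcm6, which has a TTTGGCGC further on.

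Over the whole 300-base windows and both strands, TTTGGCGC occurred in 5 of the 33 genes (15.2%, against 0.585% of all 27025 genes in the table). TTTCGCGC occurred in 7 (21.2%, against 0.374%). Either motif was found in 10 of the 33, namely Cdt1, Lig1, Mcm3, Mcm5, Mcm6, Mcm7, Orc1, Pola1, Rfc3 and Uhrf1 (30.3%, against 0.929%). The shorter TTCGCGC and TTGGCGC, which lie within these, were in 8 and 7 of the 33 genes (1.81% and 2.85% of all), CACTTGA was in 1 (3.6% of all), and CCAAT was in 19 (57.6%, against 41.1%). In all 6 strings were searched, and the longer pair was picked for display after the counts were seen. Rrm2 had neither motif in its window. The other promoters shown each had at least 1, so the display holds a larger share with a motif than the 10 of all 33. These matches are descriptions of letters in a window, with no test.

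LPS was compared over all 3 retinoid states, 6 arrays against 6, to see how activation of the cells changed each gene. Of the 39 replication genes, 37 fell and 0 rose. Among all tested genes 47.9% fell and 11.0% rose, so the count of falls stands on a high background at the deposited scaling. With quantile normalization, which removes overall shifts between arrays, 33 fell and 1 (Tyms) rose, against 29.0% and 24.2% of all genes, and these 33 fell under both scalings. For all genes the share under both scalings is not given here or below, and for falls with LPS it cannot exceed that 29.0%. The median change of the 39 genes was -1.54 (-1.41 with quantile normalization), and 5.73% of all tested genes lay at or below that value. A relative change below -1 was seen in 26 of the 39 and below -2 in 11, against 12.5% and 3.08% of all genes. In 23 of the 39 (59.0%) all 6 LPS arrays lay below all 6 arrays without LPS, against 19.3% of all genes. In bulk RNA, fewer dividing cells and less of these transcripts per cell cannot be told apart.

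**Figure D1:**
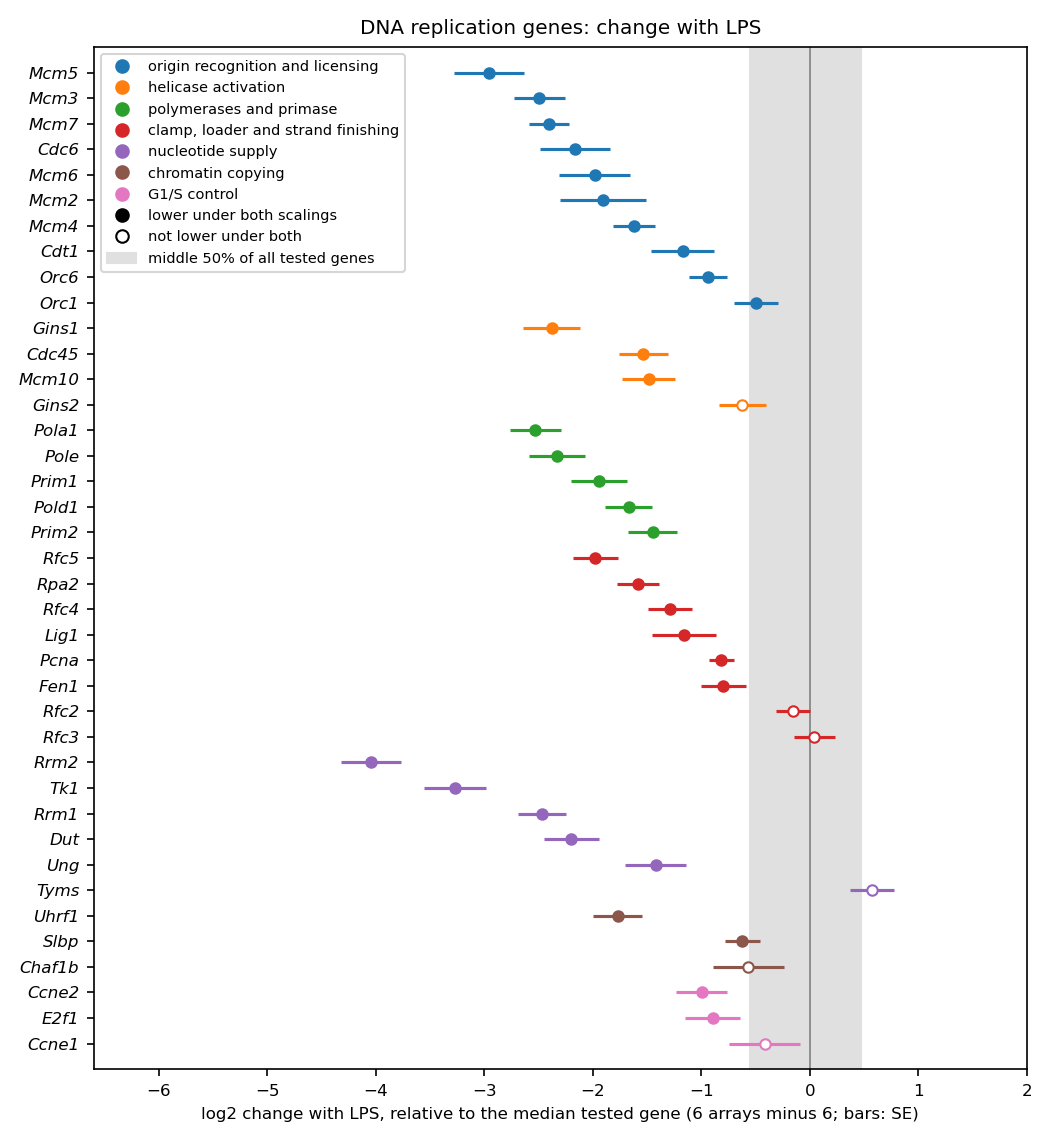
Change with LPS of 39 DNA replication genes, 6 arrays with LPS minus 6 without, as the log2 difference relative to the median tested gene, with bars for the standard error and colours for roles. Filled points mark genes that fell under both scalings, and 33 points are filled, while the grey band (-0.55 to 0.47) holds the middle 50% of all tested genes.

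All 10 genes of origin recognition and licensing fell under both scalings, with a median of -1.94. Signals are listed below in the order no retinoid, RA and Ro. Mcm5, a subunit of the helicase ring, changed most in this group. Without LPS, Mcm5 gave 1422, 1980 and 2229 in BALB/c and 449, 660 and 1641 in BL6. With LPS, Mcm5 gave 66.5, 132 and 78.1 in BALB/c and 120, 99.8 and 137 in BL6. Every LPS array lay below every array without LPS, and the change was -2.96 ± 0.32 (7.76-fold lower, adjusted p = 5.0e-06). The other ring subunits followed with -2.49 ± 0.24 for Mcm3, -2.40 ± 0.19 for Mcm7, -1.98 ± 0.33 for Mcm6, -1.91 ± 0.39 for Mcm2 and -1.62 ± 0.19 for Mcm4.

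Signals of Mcm7 were 2866, 3697 and 4563 in BALB/c and 1145, 1400 and 3208 in BL6 without LPS. They were 355, 394 and 478 in BALB/c with LPS, and 295, 207 and 394 in BL6. The groups of Mcm7 did not overlap, and in every condition the BL6 array lay below its BALB/c partner. Without LPS, Mcm6 gave 712, 1047 and 1465 in BALB/c and 270, 490 and 1220 in BL6. With LPS, Mcm6 gave 92.8, 70.4 and 146 in BALB/c and 69.2, 262 and 253 in BL6. Ring subunit Mcm6 also had no overlap, its highest LPS arrays being those of BL6 with RA and with Ro. Signals of Mcm4 were 783, 1002 and 1054 in BALB/c and 299, 436 and 931 in BL6 without LPS. They were 172, 148 and 217 in BALB/c with LPS, and 94.0, 120 and 219 in BL6. The groups of Mcm4 were apart as well. The 2 ring subunits not listed by array, Mcm2 and Mcm3, ran from 71.7 to 883 without LPS and 40.6 to 109 with it for Mcm2, and from 347 to 1417 without LPS and 74.2 to 135 with it for Mcm3. Mcm2 overlapped through the BL6 array without retinoid (71.7), which lay below its LPS partner (94.3).

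Orc1, the largest subunit of the origin recognition complex, changed least in this group. Without LPS, Orc1 gave 58.4, 117 and 89.1 in BALB/c and 31.7, 24.5 and 43.6 in BL6. With LPS, Orc1 gave 18.8, 29.0 and 29.4 in BALB/c and 14.7, 17.4 and 21.8 in BL6. The groups overlapped, the LPS arrays all lay below background, and the change was -0.49 ± 0.21 (adjusted p = 0.00235). Orc6 is another subunit of the same complex. Signals of Orc6 were 250, 316 and 376 in BALB/c and 189, 258 and 539 in BL6 without LPS. They were 80, 76.2 and 132 in BALB/c with LPS, and 110, 121 and 156 in BL6. The groups of Orc6 did not overlap (change -0.94 ± 0.17, 1.92-fold lower).

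Cdt1 and Cdc6 load the helicase rings. Without LPS, Cdt1 gave 943, 1459 and 1491 in BALB/c and 468, 602 and 1190 in BL6. With LPS, Cdt1 gave 472, 612 and 200 in BALB/c and 277, 295 and 161 in BL6. Cdt1 overlapped between groups, because the BALB/c LPS arrays without retinoid and with RA (472 and 612) lay above the lowest array without LPS (468). Its lowest values were those with Ro and LPS, and its change over all arrays was -1.17 ± 0.29 (2.25-fold lower). Cdc6 ranged over 41.5 to 247 without LPS and 3.96 to 24.9 with it, with no overlap and a change of -2.16 ± 0.32.

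**Figure D2:**
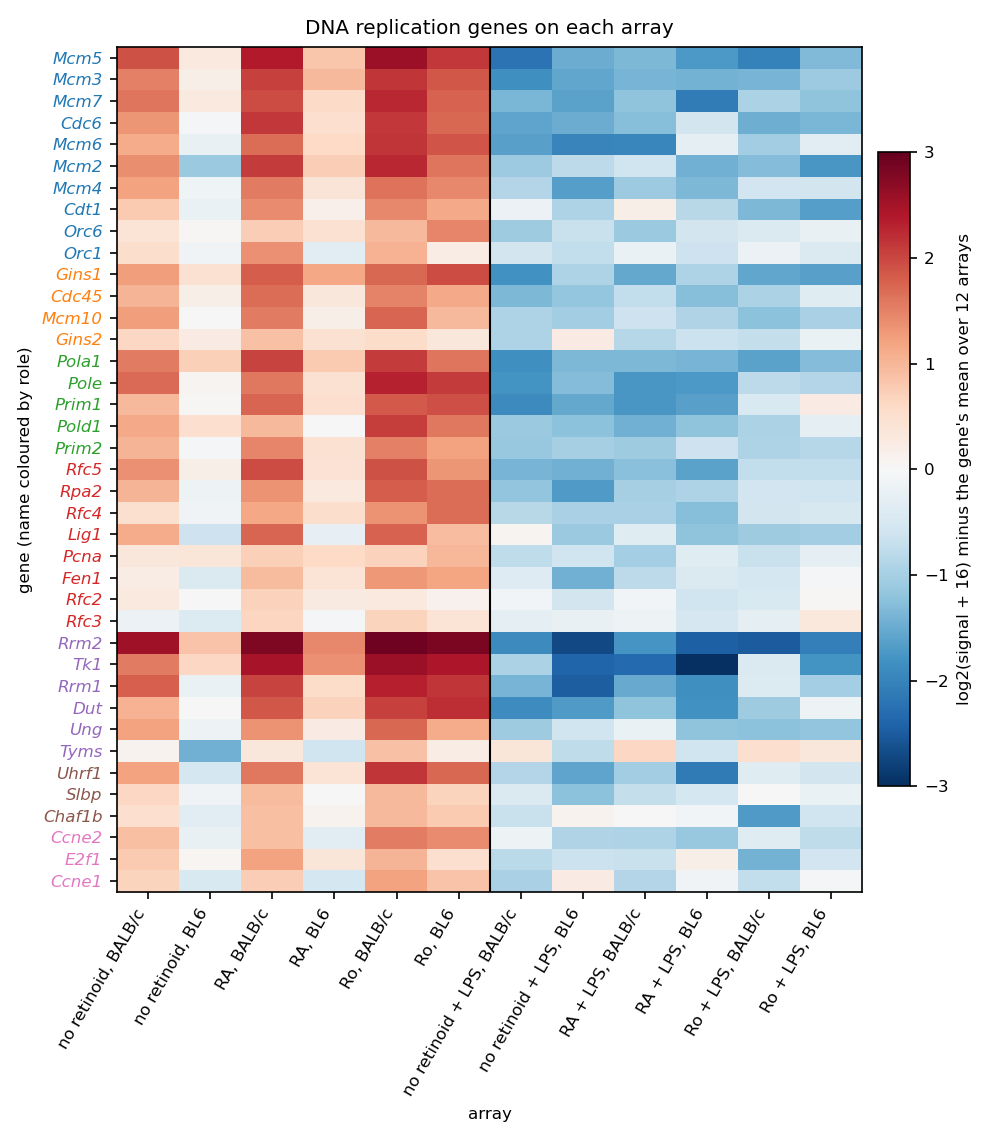
Level of 39 DNA replication genes on each of the 12 arrays, as log2(signal + 16) minus the gene's own mean over the 12 arrays, with genes in rows (names coloured by role) and arrays in columns, those with LPS to the right of the line. Rrm2 and Tk1 change most from left to right of the line, and the BL6 array without retinoid or LPS is the palest of the columns without LPS.

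The 4 helicase activators fell, 3 of them under both scalings, with a median of -1.51. Gins1, a subunit of the GINS complex, changed most. Signals of Gins1 were 205, 307 and 290 in BALB/c and 110, 190 and 344 in BL6 without LPS. They were 10.3, 16 and 15.1 in BALB/c with LPS, and 32.5, 32.7 and 14.0 in BL6. The groups of Gins1 were far apart, the LPS arrays lay below background, and the change was -2.38 ± 0.26 (adjusted p = 4.5e-06). Its partner Gins2 changed least. Without LPS, Gins2 gave 443, 530 and 421 in BALB/c and 337, 395 and 363 in BL6. With LPS, Gins2 gave 142, 148 and 165 in BALB/c and 339, 174 and 242 in BL6. For Gins2 the BL6 pair without retinoid gave nearly the same signal (337 and 339), the groups overlapped, and the change of -0.62 ± 0.22 (1.54-fold lower, adjusted p = 0.00139) was lost with quantile normalization (adjusted p = 0.0567). Cdc45, the third part of the active helicase, ranged over 103 to 322 without LPS and 25.3 to 65.4 with it (-1.54 ± 0.23), and its dimmer second probe set, with a mean signal of 25.7, did not pass. Mcm10, which helps to start the helicase, ranged over 110 to 410 without LPS and 37.8 to 66.3 with it (-1.49 ± 0.24).

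All 5 polymerase and primase genes fell under both scalings, with a median of -1.94. Pola1, the catalytic subunit of the polymerase that begins each new strand, changed most. Without LPS, Pola1 gave 199, 280 and 298 in BALB/c and 104, 110 and 207 in BL6. With LPS, Pola1 gave 4.46, 12.4 and 7.99 in BALB/c and 12.5, 11.9 and 13.5 in BL6. All 6 LPS arrays of Pola1 lay below background and far below the others (change -2.53 ± 0.24, adjusted p = 1.4e-06). Pole encodes the catalytic subunit of the leading-strand polymerase. Signals of Pole were 183, 170 and 289 in BALB/c and 49.0, 68.3 and 248 in BL6 without LPS. They were 1.91, 2.30 and 19.9 in BALB/c with LPS, and 8.98, 2.59 and 17.4 in BL6. The groups of Pole did not overlap either, with a change of -2.33 ± 0.26, and all 6 LPS arrays lay below background.

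Pold1 is the catalytic subunit of the polymerase of the lagging strand. Without LPS, Pold1 gave 432, 383 and 850 in BALB/c and 273, 187 and 592 in BL6. With LPS, Pold1 gave 78.0, 59.8 and 89.7 in BALB/c and 71.2, 71.8 and 151 in BL6. Pold1 had no overlap (change -1.67 ± 0.22, 3.18-fold lower), and the Ro array was the highest within each LPS state and strain. Prim1, the catalytic subunit of the primase that lays down RNA primers, stood out among the LPS arrays with Ro. Signals of Prim1 were 348, 608 and 649 in BALB/c and 173, 245 and 692 in BL6 without LPS. They were 32.9, 39.5 and 118 in BALB/c with LPS, and 47.7, 43.5 and 201 in BL6. Its BL6 array with Ro and LPS (201) lay above the BL6 array without retinoid or LPS (173), so the groups overlapped, and the change was -1.94 ± 0.26 (3.84-fold lower). Prim2, the large primase subunit, changed least of the 5. Without LPS, Prim2 gave 267, 368 and 383 in BALB/c and 117, 174 and 303 in BL6. With LPS, Prim2 gave 47.5, 51.0 and 57.2 in BALB/c and 54.3, 75 and 60.7 in BL6. The groups of Prim2 did not overlap (change -1.45 ± 0.23, 2.73-fold lower).

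Clamp, clamp loader and strand-finishing genes changed less, with a median of -0.99, and 7 of 8 fell (6 under both scalings). Rfc5, a subunit of the clamp loader, changed most. Signals of Rfc5 were 713, 1079 and 1053 in BALB/c and 304, 364 and 696 in BL6 without LPS. They were 91.7, 103 and 153 in BALB/c with LPS, and 88.1, 76.8 and 155 in BL6. The groups of Rfc5 were apart (change -1.98 ± 0.21, 3.93-fold lower). Rfc3, in the same complex, did not pass. Without LPS, Rfc3 gave 165, 305 and 307 in BALB/c and 138, 183 and 256 in BL6. With LPS, Rfc3 gave 153, 169 and 152 in BALB/c and 158, 128 and 240 in BL6. The groups of Rfc3 overlapped in both strains, and the change was 0.04 ± 0.19 (adjusted p = 0.11). Its second kept probe set gave 0.03 ± 0.20. Rfc2 likewise changed little: its signals ran from 788 to 1267 without LPS and 506 to 799 with it, and its change of -0.16 ± 0.15 (adjusted p = 0.00711) was lost with quantile normalization (adjusted p = 0.247).

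Rfc4, the remaining loader subunit listed, fell by more. Signals of Rfc4 were 191, 318 and 365 in BALB/c and 124, 198 and 462 in BL6 without LPS. They were 67.8, 59.5 and 85.3 in BALB/c with LPS, and 59.8, 45.9 and 91.5 in BL6. The groups of Rfc4 did not overlap (change -1.28 ± 0.20, 2.44-fold lower). Pcna encodes the sliding clamp itself. Its signals ran from 5223 to 8300 without LPS and 2035 to 3419 with it, with no overlap, a change of -0.82 ± 0.12 (1.76-fold lower) and an adjusted p of 4.4e-06. Rpa2, a subunit of the protein that coats single-stranded DNA, changed by -1.58 ± 0.20 (3.0-fold lower). Without LPS, Rpa2 gave 434, 549 and 766 in BALB/c and 186, 260 and 695 in BL6. With LPS, Rpa2 gave 81.6, 96.4 and 134 in BALB/c and 52.6, 101 and 132 in BL6. Rpa2 was thus lower on all 6 LPS arrays than on any of the others.

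Fen1, the nuclease that trims flaps on the lagging strand, changed by -0.80 ± 0.21 (1.74-fold lower). Signals of Fen1 were 975, 1600 and 2067 in BALB/c and 609, 1099 and 1897 in BL6 without LPS. They were 627, 471 and 572 in BALB/c with LPS, and 296, 608 and 792 in BL6. The groups of Fen1 overlapped through the BL6 arrays, and its second probe set changed by -1.50 ± 0.16. Lig1 is the ligase that joins the fragments. Without LPS, Lig1 gave 637, 1003 and 1019 in BALB/c and 179, 239 and 560 in BL6. With LPS, Lig1 gave 303, 217 and 127 in BALB/c and 124, 115 and 131 in BL6. In both strains the LPS arrays of Lig1 lay below those without LPS, but the BALB/c LPS arrays reached above the BL6 arrays without LPS (change -1.16 ± 0.30, 2.23-fold lower).

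Genes that supply nucleotides, grouped here with the uracil-removing enzyme Ung, held the largest falls. In this group 5 of 6 fell under both scalings, with a median of -2.33. Rrm2, the subunit that limits ribonucleotide reductase, fell most of all 39. Signals of Rrm2 were 1498, 1792 and 1967 in BALB/c and 455, 695 and 1841 in BL6 without LPS. They were 54.0, 60.3 and 30.5 in BALB/c with LPS, and 24.1, 32.1 and 47.0 in BL6. Mean Rrm2 signal was 1375 without LPS and 41.3, at background, with LPS, a change of -4.04 ± 0.28 (adjusted p = 3.1e-07). The other 2 probe sets of Rrm2 changed by -3.80 ± 0.36 and -3.66 ± 0.32. Its partner subunit Rrm1 changed by -2.47 ± 0.22 (5.53-fold lower). Without LPS, Rrm1 gave 1153, 1347 and 1659 in BALB/c and 275, 476 and 1454 in BL6. With LPS, Rrm1 gave 111, 102 and 236 in BALB/c and 44.4, 77.5 and 150 in BL6. The Rrm1 groups did not overlap, and with LPS its highest arrays were those with Ro.

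Tk1, the thymidine kinase of the salvage pathway, had the second largest change (-3.27 ± 0.29, adjusted p = 1.2e-06). Signals of Tk1 were 424, 817 and 868 in BALB/c and 214, 372 and 784 in BL6 without LPS. They were 61.6, 13.5 and 93.7 in BALB/c with LPS, and 12.4, 0.951 and 27.3 in BL6. On the LPS arrays Tk1 was above background only in BALB/c without retinoid and with Ro. Dut, which breaks down dUTP so that uracil is kept out of DNA, changed by -2.20 ± 0.25 (4.59-fold lower). Without LPS, Dut gave 365, 661 and 749 in BALB/c and 168, 285 and 844 in BL6. With LPS, Dut gave 34.6, 64.3 and 73.5 in BALB/c and 41.1, 36.7 and 151 in BL6. Dut was highest among LPS arrays in BL6 with Ro, still below every array without LPS. Ung, which removes uracil from DNA, ranged over 79.2 to 328 without LPS and 28.8 to 75 with it, with no overlap and a change of -1.42 ± 0.28.

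Tyms, the enzyme that makes thymidylate, did not fall. Signals of Tyms were 55.1, 67.5 and 104 in BALB/c and 8.18, 27.3 and 60.4 in BL6 without LPS. They were 68.6, 84.9 and 76.9 in BALB/c with LPS, and 22.5, 27.5 and 67.6 in BL6. Tyms overlapped between groups in both strains, and its change was 0.57 ± 0.20 (adjusted p = 0.519). It rose with quantile normalization (adjusted p = 0.015). Its probe set was dim, with a mean signal of 55.9, and its other 3 probe sets did not pass the filter on low signals.

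Of the 3 measured genes of chromatin copying all fell, 2 under both scalings, with a median of -0.62. Uhrf1, which brings the maintenance methyltransferase to newly copied DNA, changed most (-1.77 ± 0.23, 3.41-fold lower). Without LPS, Uhrf1 gave 481, 624 and 940 in BALB/c and 134, 272 and 694 in BL6. With LPS, Uhrf1 gave 102, 87.9 and 150 in BALB/c and 55.3, 33.6 and 131 in BL6. Uhrf1 overlapped between groups only through the BL6 array without retinoid (134), which lay below the BALB/c array with Ro and LPS (150). Slbp binds the stem-loop of replication-dependent histone messages. Signals of Slbp were 1236, 1546 and 1564 in BALB/c and 737, 793 and 1283 in BL6 without LPS. They were 584, 475 and 797 in BALB/c with LPS, and 330, 549 and 695 in BL6. Slbp changed by -0.62 ± 0.16 (1.54-fold lower), and its second probe set did not fall. Chaf1b, the middle subunit of CAF-1, changed least. Without LPS, Chaf1b gave 208, 278 and 297 in BALB/c and 108, 155 and 257 in BL6. With LPS, Chaf1b gave 82.9, 144 and 32.9 in BALB/c and 154, 133 and 89.0 in BL6. The groups of Chaf1b overlapped, and its change of -0.57 ± 0.33 (1.48-fold lower, adjusted p = 0.0207) was lost with quantile normalization (adjusted p = 0.325). It was also lost without the BALB/c array with Ro (adjusted p = 0.0548) or the BL6 array with Ro (adjusted p = 0.0526).

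The 3 regulators of the G1/S step fell with a median of -0.90, 2 of them under both scalings. Ccne2, a cyclin E that activates Cdk2, changed most. Signals of Ccne2 were 89.7, 90.2 and 150 in BALB/c and 32.5, 29.7 and 135 in BL6 without LPS. They were 34.9, 13.8 and 28.3 in BALB/c with LPS, and 14.4, 9.82 and 17.6 in BL6. Ccne2 was below background on every LPS array (change -1.0 ± 0.23, adjusted p = 2.6e-04). Ccne1, the other cyclin E, changed least. Without LPS, Ccne1 gave 698, 742 and 1030 in BALB/c and 311, 294 and 800 in BL6. With LPS, Ccne1 gave 214, 228 and 254 in BALB/c and 517, 405 and 422 in BL6. In BALB/c the LPS arrays of Ccne1 all lay below the others, while in BL6 the pair without retinoid ran the other way (311 and 517). Its change of -0.42 ± 0.32 (adjusted p = 0.0434) was lost with quantile normalization (adjusted p = 0.332) and on leaving out any 1 of the 6 BALB/c arrays or of the 2 BL6 arrays with Ro, with adjusted p from 0.068 to 0.116. The second kept probe set of Ccne1 gave -0.11 ± 0.33 and did not pass. The transcription factor E2f1 ranged over 214 to 494 without LPS and 67.3 to 236 with it (-0.90 ± 0.25, 1.86-fold lower).

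**Figure D3:**
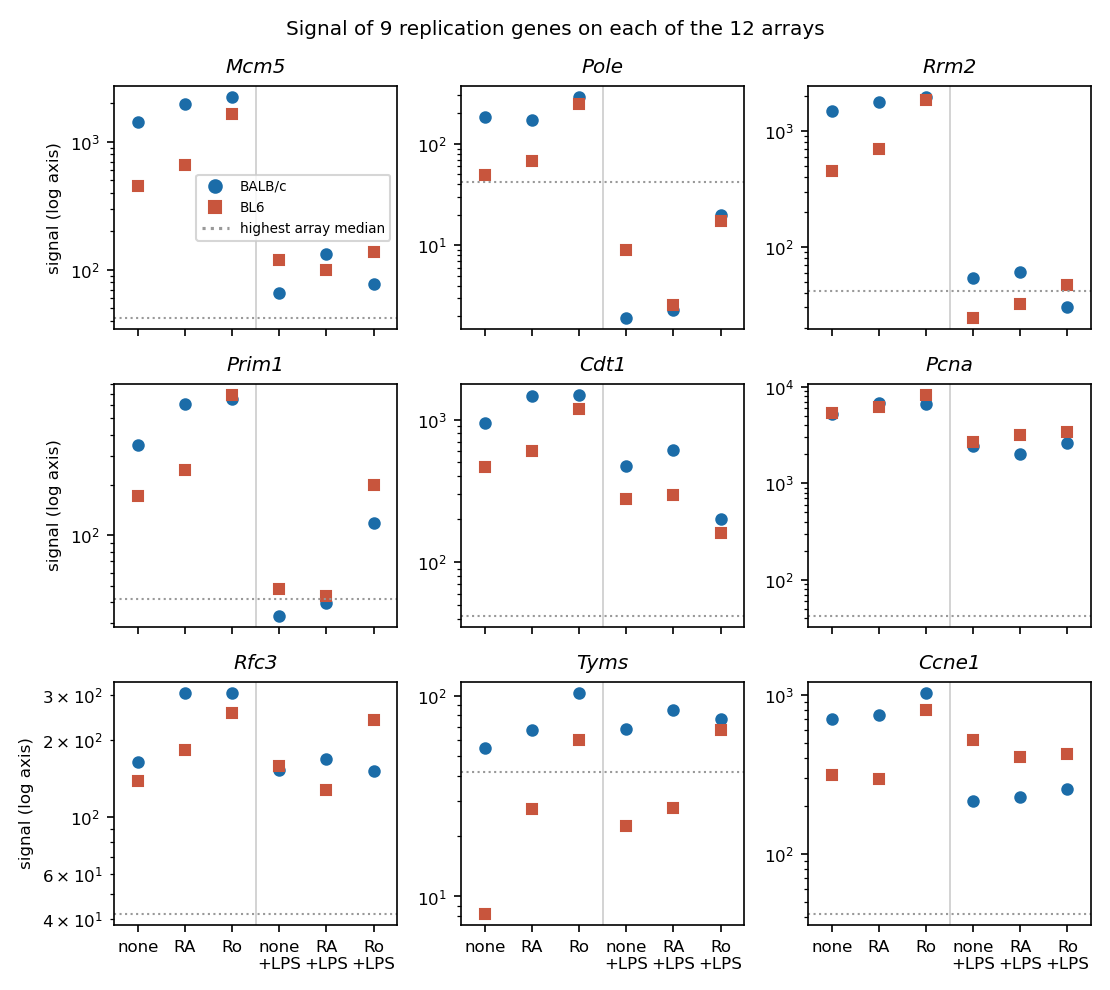
Signals of 9 DNA replication genes on each of the 12 arrays on log axes, with circles for BALB/c, squares for BL6 and a dotted line at the highest array median (41.8). The genes were picked after their values were seen: Mcm5, Pole and Rrm2 drop on all LPS arrays, Prim1 and Cdt1 part with Ro and LPS, Pcna falls less, and Rfc3, Tyms and Ccne1 overlap.

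Other genes of the same processes were read from fixed lists. Their counts stand against 47.9% of all genes lower and 11.0% higher with LPS (29.0% and 24.2% with quantile normalization). Of 45 further replication genes 43 were tested, and 32 fell and 0 rose with LPS (26 fell under both scalings), with a median of -0.81. The largest fall was that of Dna2, a helicase and nuclease (-3.27 ± 0.26, 9.62-fold lower), and the smallest changes among those that fell belonged to Rnaseh2b (0.02 ± 0.14) and Orc5 (0.03 ± 0.14), whose relative changes were near 0. Of 31 further G1/S regulators 19 fell (14 under both scalings) and 5 rose, with a median of -0.53. Ccna2, the S-phase cyclin A, had the largest fall (-3.53 ± 0.26, to a mean of 36.2). The 5 that rose were Ccnd2, a D-type cyclin (2.34 ± 0.32), E2f5, a repressive E2F (2.34 ± 0.32), and the inhibitors of cyclin-dependent kinases Cdkn2b (1.78 ± 0.31), Cdkn1b (1.24 ± 0.20) and Cdkn1a (1.06 ± 0.12), under both scalings.

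Markers of other cells were read on the same arrays, against 47.9% of all genes lower and 11.0% higher with LPS. All 9 tested markers of neutrophils and their precursors fell, with a summed signal of 10395 to 47395 without LPS and 345 to 3689 with it. Among markers of marrow progenitors 4 of 6 tested fell, and the summed signal over 7 was 338 to 2183 without LPS and 179 to 617 with it. Among macrophage and monocyte markers 5 of 9 fell and 1 rose (sum 39183 to 59452 without LPS and 12406 to 51283 with it). Among 10 dendritic cell markers 3 fell and 2 rose (sum 34769 to 54187 without LPS and 33075 to 55840 with it). Of basophil and mast cell markers 2 of 3 tested fell (sum 35.2 to 2315 without LPS and 36.9 to 432 with it). The B cell marker sum stayed between 51.4 and 170 with Cd79a, Ms4a1 and Ebf1 below background on all arrays, that of T and NK cells between 15.7 and 79.8 with Cd3e, Cd3d and Ncr1 below it, and that of red cell precursors between 48.7 and 109 with Hba-a1 and Alas2 below it. The part of these cells in the falls of the replication genes was not tested.

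LPS was then compared within each retinoid state, 2 arrays against 2. Without retinoid 27 of the 39 genes fell and 0 rose, with a median of -1.05 (-0.62 without the BALB/c array that had neither agent), against 37.7% and 8.05% of all genes. With RA 33 fell and 0 rose, with a median of -1.40, against 28.6% and 6.55%. With Ro 33 fell and 0 rose, with a median of -2.02, against 24.0% and 6.00%. With quantile normalization 22 fell and 2 (Tyms and Rfc3) rose without retinoid (22.0% and 16.3% of all genes), 30 fell and 0 rose with RA (16.9% and 12.5%), and 33 fell and 0 rose with Ro (15.5% and 12.1%). The counts rest on single arrays in places: without the BALB/c array that had neither retinoid nor LPS the first was 16, and without the BALB/c array with RA the second was 17. For Mcm5 the changes were -2.42 ± 0.54 without retinoid, -2.74 ± 0.54 with RA and -3.66 ± 0.54 with Ro, and for Rrm2 they were -3.47 ± 0.44, -3.82 ± 0.44 and -4.80 ± 0.44. Mcm2 fell with RA (-2.02 ± 0.51) and with Ro (-3.10 ± 0.51), and gave -0.55 ± 0.51 without retinoid (adjusted p = 0.109).

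The differences between retinoid states were tested as interactions. For RA by LPS 0 of the 39 genes passed (0% of all genes in either direction), with 1 at an unadjusted p under 0.05. For Ro by LPS 0 passed (0.386% of all genes lower and 0.257% higher), with 6 at an unadjusted p under 0.05 and a median of -0.76, which was -0.48 without the BL6 array with neither agent. Cdt1 came closest: LPS changed it by -0.32 ± 0.28 without retinoid and by -2.44 ± 0.28 with Ro, and the difference of -2.08 ± 0.40 had an adjusted p of 0.0585 at the deposited scaling and 0.0197 with quantile normalization, where it was the 1 gene called (0.853% of all genes lower and 0.523% higher). At the deposited scaling the count was 1 without the BALB/c array that had neither retinoid nor LPS, and also 1 without either array with RA and LPS.

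Within strains, 3 arrays against 3, 37 genes fell and 0 rose in BALB/c (44.4% and 7.76% of all genes) with a median of -1.84. In BL6 31 fell and 0 rose (29.6% and 8.18%) with a median of -1.29. With quantile normalization 34 fell and 1 (Tyms) rose in BALB/c (22.0% and 18.4%), and 26 fell and 0 rose in BL6 (19.0% and 14.1%). All 3 LPS arrays lay below all 3 others for 37 genes in BALB/c (46.3% of all genes) and for 29 in BL6 (28.4%). Ccne1 and E2f1 fell in BALB/c and did not pass in BL6: Ccne1 changed by -1.21 ± 0.28 in BALB/c and 0.40 ± 0.28 in BL6, and E2f1 by -1.44 ± 0.24 and -0.34 ± 0.24. The difference between strains was tested for every gene, and 0 of the 39 passed (0.105% of all genes lower and 0.00805% higher), with 15 at an unadjusted p under 0.05, a median of -0.61, and the largest for Ccne1 (-1.57 ± 0.40, adjusted p = 0.148). The count was 1 without the BL6 array with Ro, and the median was -0.30 without the BL6 array with neither agent, -0.34 without the BALB/c array with Ro and LPS, and -0.35 without the BL6 array with LPS alone. Paired array by array, the median LPS change of the 39 genes was -1.60 in BALB/c and -0.58 in BL6 without retinoid, -1.81 and -0.98 with RA, and -2.17 and -1.84 with Ro.

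**Figure D4:**
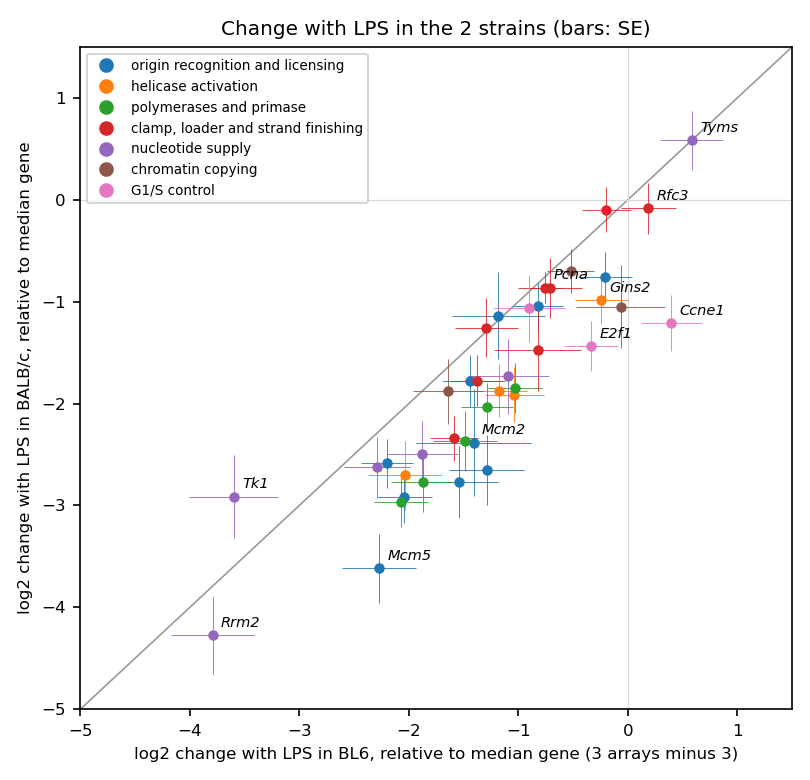
Change with LPS of 39 DNA replication genes in BL6 (x axis) and BALB/c (y axis), 3 arrays minus 3 in each, as log2 differences relative to the median tested gene, with bars for standard errors, colours for roles and a line of equality. Most points lie below the line, with Rrm2 at -3.79 in BL6 and -4.28 in BALB/c, while Tyms lies at 0.58 in both, and 0 of the 39 differences passed their test.

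Levels differed more between arrays without LPS than between those with it. The median of the 39 genes on an array, minus the median of all tested genes on it, was 0.56 in BALB/c and -0.16 in BL6 without retinoid, 1.04 and 0.37 with RA, and 1.24 and 1.08 with Ro. With LPS it was -0.89 and -0.67, -0.68 and -0.90, and -0.82 and -0.50. The 6 arrays without LPS thus spanned 1.40 log2 units and the 6 with LPS 0.40 (SD 0.53 and 0.16). Per gene, 31 of the 39 had a wider range without LPS than with it (79.5%), against 37.0% of all genes. The BL6 array with neither retinoid nor LPS was the lowest of the 6, with 35 of the 39 genes above background, and on the BALB/c array of that condition all 39 were. With LPS fewer were above background, from 26 of the 39 in BL6 with RA to 31 in BALB/c with RA. Background is the same signal for every array, and the share of all genes above it is not given. The median of all tested genes on an array, on the log2 scale, was also lower with LPS (7.08 to 7.72) than without it (7.78 to 8.37). The part of that shift in the lower counts was not tested. Near background the constant added before the log narrows differences between arrays. The part of this in the narrower spread with LPS was not tested.

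Ro was compared with no retinoid, 4 arrays against 4 over both LPS states, to see what blocking the receptor did. It raised 14 of the 39 genes and lowered 0, against 14.1% of all genes raised and 4.36% lowered. With quantile normalization 8 rose and 0 fell (7.61% and 6.58% of all), all 8 under both scalings. Prim1 rose most (1.27 ± 0.31, 2.42-fold higher, adjusted p = 0.00977), then Dut (1.17 ± 0.31, 2.25-fold), Mcm6 (1.12 ± 0.40) and Rrm1 (1.10 ± 0.27, 2.14-fold, adjusted p = 0.00878). Uhrf1 (0.96 ± 0.28), Rpa2 (0.86 ± 0.24), Pole (0.79 ± 0.32), Fen1 (0.76 ± 0.25) and Tyms (0.69 ± 0.25) rose too. The remaining rises, of Rfc4, Mcm4, Orc6, Mcm7 and Slbp, lay between 0.42 ± 0.19 and 0.63 ± 0.25, and these and Mcm6 did not pass with quantile normalization.

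Single arrays carried much of the Ro count. It was 8 without the BALB/c array that had LPS alone, 5 without the BL6 array with neither agent, 5 without the BL6 array with Ro, and 3 (Prim1, Rpa2 and Rrm1) without the BL6 array with Ro and LPS. Without strain as a block it was 4 (Prim1, Dut, Rpa2 and Fen1). Among the other lists, 14 of 43 replication genes and 10 of 31 G1/S regulators rose with Ro and 0 fell in either, against 14.1% of all genes raised and 4.36% lowered. Under both scalings 9 and 3 rose, and the 3 of 31 lay close to the 7.61% of all genes raised with quantile normalization. Pold2, a subunit of the lagging-strand polymerase, rose most in the first list (1.06 ± 0.22) and the kinase gene Cdk6 in the second (1.19 ± 0.25). The median relative change of the 39 was 0.43, and 34 of the 39 lay above 0, but the median was 0.23 without the BL6 array with neither agent. Markers of other cells also moved with Ro: of the tested markers, 4 of 9 for macrophages and monocytes fell, and 2 of 10 for dendritic cells and 1 of 3 for basophils and mast cells rose. The basophil and mast cell sum without LPS was 87.3 to 258 without retinoid and 144 to 2315 with Ro. Of the 9 tested markers of neutrophils and their precursors 0 passed with Ro. Their sum without LPS was 15496 in BALB/c and 13185 in BL6 without retinoid, and 10395 and 32901 with Ro. Of the progenitor markers 0 of 6 passed with Ro. The part of these cells in the Ro values was not tested.

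Without LPS the shift was broad and mostly short of the threshold. Ro against no retinoid, 2 arrays against 2, gave a median of 0.85 (0.53 without the BL6 array with neither agent), and 37 of the 39 genes lay above 0. An unadjusted p under 0.05 was seen for 28 of the 39, with the share of all genes at that threshold not given. By adjusted p 3 rose and 0 fell (1.48% and 1.21% of all genes): Uhrf1 (1.43 ± 0.35, 2.70-fold higher), Rfc4 (1.17 ± 0.30, 2.24-fold) and Tk1 (1.24 ± 0.33, adjusted p = 0.05 to 2 decimals). Quantile normalization kept Uhrf1 and Rfc4 and added Fen1 and Rpa2, with 4 higher and 0 lower (1.55% and 2.35% of all genes). The count was 0 without either array with RA, either array with Ro, either array with LPS alone, or the BL6 array with neither agent, and it was 1 without either array with Ro and LPS. The strains differed in size: the median over the 39 genes was 0.53 in BALB/c, where 0 genes changed by over 1, and 1.27 in BL6, where 26 did (3.24% and 6.37% of all genes). In the BL6 cultures Mcm2 went from 71.7 to 554 and Rrm1 from 275 to 1454, and in BALB/c from 480 to 883 and from 1153 to 1659. Whether that strain difference passes a test was not tested.

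With LPS present, Ro raised 1 of the 39 genes and lowered 1. The median was 0.06, and it was below 0 without the BALB/c array that had LPS alone (-0.15) or the BL6 array with Ro and LPS (-0.09). Prim1 rose (1.33 ± 0.44, adjusted p = 0.0253, from a mean of 40.3 to 160) and Cdt1 fell (-1.24 ± 0.28, 2.36-fold lower, adjusted p = 0.0342), against 16% of all genes higher and 5.59% lower. Both also passed with quantile normalization (11.2% and 9.04%). In both strains Prim1 was at least at 118 with Ro and LPS and at most at 47.7 on the other LPS arrays, and Cdt1 was at most at 200 with Ro and LPS and at least at 277 on the others. The fall of Cdt1 was lost when it was read from its second probe set, and with only the 4 arrays compared in the fit. With 64 added before the log, or without strain as a block, both calls were lost. The count of 2 became 0 without either array that had LPS alone, 4 without either array with RA and LPS, and 1 without the BL6 array with Ro and LPS.

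RA against no retinoid was tested likewise. Over all arrays 0 of the 39 genes passed in limma, with 0 at an unadjusted p under 0.05, against 0% of all genes in either direction. Without LPS 0 passed (0.0322% of all genes higher and 0.113% lower), with 3 at an unadjusted p under 0.05, and 37 of the 39 lay above 0 with a median of 0.46. That median was 0.17 and 0.77 without the BL6 and the BALB/c array that had neither agent, and 0.20 and 0.72 without the BALB/c and the BL6 array with RA. With LPS 0 passed (0% of all genes), with 1 at an unadjusted p under 0.05 and a median of 0.07, which ran from -0.22 without the BALB/c array to 0.31 without the BL6 array that had LPS alone. The values without LPS were largest for Mcm2 (1.30 ± 0.51, adjusted p = 0.589), Tk1 (0.87 ± 0.33, adjusted p = 0.565) and Fen1 (0.80 ± 0.34, adjusted p = 0.663). In these values RA and Ro, which act on the receptor in opposite ways, both lay above no retinoid, and they share those control arrays.

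**Figure D5:**
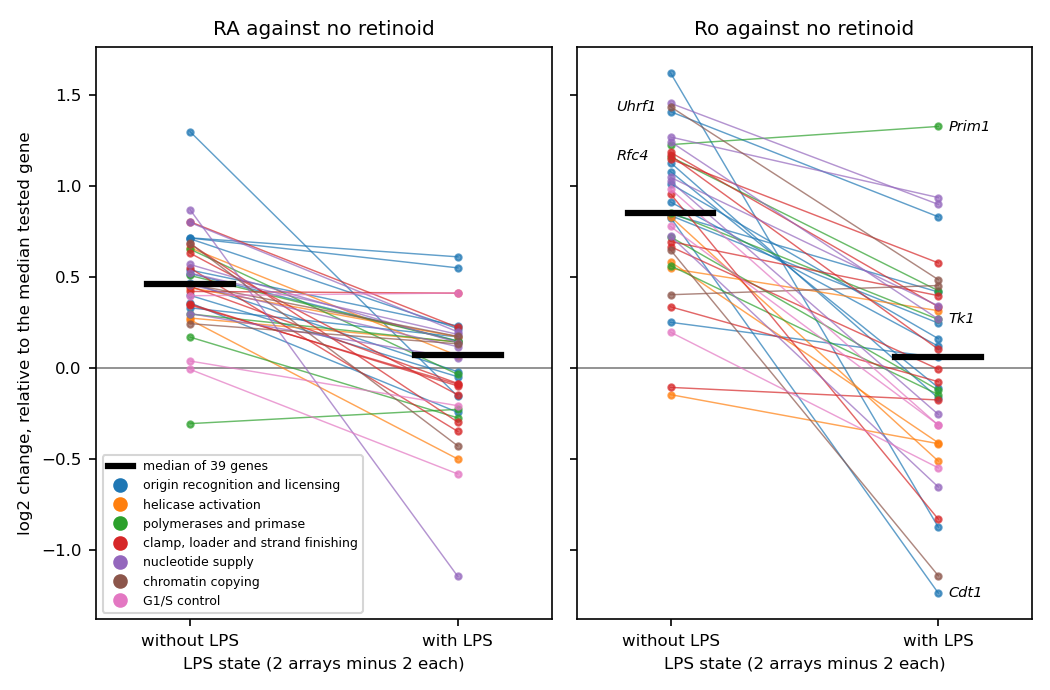
Change of 39 DNA replication genes with RA (left) and with Ro (right) against no retinoid, without and with LPS, as the log2 difference relative to the median tested gene, 2 arrays minus 2 for each point. Lines join the values of 1 gene, black bars give the medians (0.46 and 0.07 for RA, 0.85 and 0.06 for Ro), and the panels share the control arrays without retinoid.

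RA was also set against Ro directly, 4 arrays against 4, and 6 genes were lower with RA: Prim1 (-0.96 ± 0.31), Tk1 (-0.88 ± 0.35), Pole (-0.84 ± 0.32), Uhrf1 (-0.82 ± 0.28), Pold1 (-0.82 ± 0.26, adjusted p = 0.0178) and Rrm1 (-0.74 ± 0.27). Of all genes 14.4% were lower, a share close to the 15.4% of the 39, and 5.36% were higher. Tk1 and Uhrf1 did not pass with quantile normalization, which left 4 lower and 0 higher (8.88% and 8.46% of all genes). The count was 0 without the BALB/c array given RA plus LPS, the BL6 array with RA or the BL6 array with Ro and LPS, 2 without the BL6 array with Ro or without strain as a block, and 10 without the BALB/c array with Ro and LPS. Without LPS Pold1 was lower with RA (-1.15 ± 0.37, 2.22-fold, adjusted p = 0.0495, against 5.08% of all genes lower and 2.62% higher), a call lost on leaving out any 1 of the 8 arrays other than those with RA and LPS or Ro and LPS. With LPS Cdt1 was higher with RA than with Ro (1.38 ± 0.28, 2.61-fold, against 5.10% of all genes higher), a call lost when it was read from its second probe set. Tk1 (-1.41 ± 0.33) and Prim1 (-1.36 ± 0.44) were lower (11.0%). The calls with LPS also changed on leaving out single arrays.

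BALB/c was set against BL6 over all conditions, 6 arrays against 6. Of the 39 genes 7 were higher in BALB/c and 0 in BL6, against 11.5% of all genes higher in BALB/c and 3.88% in BL6: Lig1 (0.95 ± 0.30, 1.93-fold), Tk1 (0.82 ± 0.29), Rrm1 (0.80 ± 0.22, 1.74-fold), Tyms (0.80 ± 0.20, adjusted p = 0.00978), Uhrf1 (0.73 ± 0.23), Mcm7 (0.62 ± 0.19, 1.54-fold) and Orc1 (0.53 ± 0.21). Tk1 and Uhrf1 did not pass with quantile normalization, which left 5 higher in BALB/c and 0 in BL6 (7.23% and 8.11% of all genes). The count was 4 without the BALB/c or the BL6 array with neither agent or the BL6 array with RA, 3 without the BALB/c array with RA or with LPS alone, and 11 without the BALB/c array with Ro and LPS. By condition, the median of the 39 genes in BALB/c minus BL6 was 0.77 without retinoid, 0.77 with RA and 0.15 with Ro, and with LPS it was -0.17, 0.28 and 0.06. Without LPS the summed signal of the progenitor markers was 1414 to 2183 in BALB/c and 338 to 1288 in BL6, and it was 338 to 1414 without retinoid and 1288 to 2183 with Ro. Of the 6 tested progenitor markers 1 passed by strain, higher in BALB/c. Cd34 made up much of the sum, with 724, 1063 and 1451 in BALB/c and 35, 76.7 and 370 in BL6 without LPS. On the same arrays Myb gave 265, 545 and 263 in BALB/c and 13.0, 28.3 and 315 in BL6. Gata2 gave 187, 331 and 191 in BALB/c and 74.8, 93.2 and 265 in BL6. Kit gave 137, 46.6 and 117 in BALB/c and 82.1, 132 and 261 in BL6. Flt3 gave 59.2, 5.77 and 101 in BALB/c and 68.1, 51.5 and 37.7 in BL6. Meis1, near or below background, gave 31.3, 24.0 and 31.0 in BALB/c and 48.0, 34.7 and 18.9 in BL6, and Hlf was below background on all arrays. The part of progenitors in the strain and Ro differences was not tested.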

How the data were processed

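The authors deposited 1 intensity per probe set and array, linear and between 0.0195 and 17488, for 12 single-colour Affymetrix arrays. The submitters' processing notes name MAS5, with no version. Arrays differed 1.96-fold in median, and their 2%-trimmed means ran from 159 to 263, which shows no scaling to 1 common mean. The number of arrays limits the precision. Detection calls were not used here.

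The annotation gave 1 gene for 34945 of 45101 probe sets, more than 1 for 932 and no gene for 9160, with 64 control sets, and 34741 gene identifiers matched the reference gene table. Values were analysed as log2(signal + 16). Probe sets had to exceed their own array's median on 2 arrays or more, and among those of a gene the one with the highest mean signal was used. Fits used limma 3.58.1 (lmFit, eBayes with trend) under R 4.3.3, with Benjamini-Hochberg adjustment over all 12429 genes and a threshold of 0.05. The averaged comparisons used additive terms for retinoid, LPS and strain. Comparisons of 2 arrays against 2, and the interactions with RA and Ro, used a term for each of the 6 conditions and 1 for strain, and the changes within strains used the additive terms and strain by LPS. Strain was the block, since 1 replicate number stands for 1 strain throughout. Differences between the strains correlated across genes with r from 0.304 to 0.699 over 15 pairs of conditions. Strain differences shared by all conditions give such correlations too, so they cannot show whether cultures were paired beyond strain.

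The 40 genes, the other gene and marker lists, the processing and the comparisons were chosen with earlier results of these data known. All 40 are named by rule. Values by array are given for the gene of largest and smallest LPS change in each role group and for any gene past the threshold with Ro, RA, strain or an interaction. The spread of levels, the comparisons by pairs of arrays and the motifs shown were chosen after values were seen. Scripts were tested on simulated data. Tables and plots used matplotlib 3.10.9, numpy 2.4.6 and pandas 2.3.3 under Python 3.11.15.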

Additional observations from a re-analysis of the deposited data

How the results depend on the processing

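The 37 genes past the threshold with LPS over all arrays numbered 34 to 37 under every planned and added alternative, and 34 with quantile normalization (33 lower and 1 higher). Among single genes past the threshold, direction turned only for Cdc45 read from its second brightest probe set, with RA (0.37) and in BL6 (0.60), neither past the threshold. The sign of medians near 0 (RA with LPS, Ro with LPS, RA against Ro with LPS) turned on leaving out single arrays. That alternative, and probe sets without an x or s suffix (suffixes of sets that can match several transcripts), were chosen after seeing the data. The cause of the changes below was not tested.

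Without the replicate block, in which strain is left out, the count for Ro over all arrays was 4 in place of 14, for RA against Ro over all arrays 2 in place of 6, and 0 for Ro without LPS (3), Ro with LPS (2), RA against Ro without LPS (1) and RA against Ro with LPS (3). It changed no count of LPS comparisons by over 1.5 times. With quantile normalization the count for Ro over all arrays was 8, and for Ro by LPS it was 1 in place of 0, as with arrays centred on their median. For Ro without LPS the count was 8 with centred arrays, 0 with 1 added before the log, 0 without a filter, 1 without the intensity trend, 12 with only the 4 arrays compared in the fit, and 1 with the second brightest probe set. For Ro with LPS it was 0 with 64 added and 1 with the second brightest probe set. For RA without LPS it was 6 in place of 0 with only the 4 arrays compared. For RA against Ro without LPS it was 2 with 64 added, 7 with only the 4 arrays compared, and 0 with 1 added, without a filter, with the mean of all kept probe sets, without the trend, without x or s probe sets, or with the second brightest probe set. For RA against Ro with LPS it was 5 with 1 added and 1 with 64 added.

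Leaving out 1 array at a time gave 35 to 37 genes for LPS over all arrays, 36 to 38 in BALB/c, 25 to 32 in BL6, 16 to 29 without retinoid, 17 to 33 with RA and 26 to 34 with Ro. The ranges were 3 to 15 for Ro over all arrays, 0 to 3 without LPS and 0 to 4 with it. They were 0 to 10 for RA against Ro over all arrays, 0 to 1 without LPS and 1 to 4 with it, 3 to 11 for strain, 0 to 1 for Ro by LPS and for strain by LPS, and 0 throughout for RA against no retinoid and RA by LPS. A lone array left in a group was assumed to vary like the others. Near background, as for 9 of the genes with LPS, the size of a change depends on the added 16.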
